A study of Homo sapiens with 2 samples.

Results

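The genes described here encode enzymes of nucleotide synthesis and salvage. They were taken by symbol from a list of 33, and all 33 were found among the 58735 genes of the deposited count table. Of these, 12 act in de novo purine synthesis, 6 in de novo pyrimidine synthesis, 9 in the making or clearing of deoxynucleotides and 6 in salvage and nucleotide interconversion. They were measured by RNA-seq in SUIT-2, a human pancreatic adenocarcinoma cell line, in a derivative labelled as highly metastatic. The series relates the response to dihydroartemisinin (DHA), the active metabolite of the artemisinin antimalarials, to prognosis in pancreatic cancer. The DHA group is 1 library of treated cells, and the control group is 1 library of cells labelled NC, which the series text describes as untreated. Both share the same cell line, and no source used here gives the dose, the exposure time or a vehicle. With 1 library per group no difference below has a replicate check and no p-value was computed, so higher and lower below describe 2 libraries only.

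Cells build purine rings stepwise on phosphoribosyl pyrophosphate (PRPP) to reach inosine monophosphate (IMP), which is then turned into AMP or GMP. Pyrimidine rings are assembled before the ribose is attached, giving UMP and from it CTP. Ribonucleotide reductase makes deoxynucleotides from ribonucleoside diphosphates, and thymidylate synthase adds the methyl group that makes thymidylate from dUMP. Salvage enzymes recover free bases and nucleosides instead, and dividing tumour cells draw on both routes.

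Counted reads came to 15452609 for NC and 14521101 for DHA. Epithelial keratin genes were abundant in both, with 29850 and 11840 reads for KRT8 and 6515 and 1977 for KRT19. The 6 epithelial markers summed to 50270 reads (NC) and 19106 (DHA), and 5 of them were lower with DHA by 2-fold or more. The protocol text names retina as the tissue, yet the rod genes SAG and GNAT1 and the photoreceptor factor gene CRX had 0 reads in both libraries. RPE65, a retinal pigment epithelium gene, had 96 and 74 reads, NRL 20 and 8, and PDE6A 6 and 5. The 8 retina markers summed to 122 and 89 reads, the 6 fibroblast markers to 105 and 12, and the 5 leukocyte markers to 40 and 23. The leukocyte genes PTPRC and CD3E and the fibroblast genes COL1A2, COL3A1 and DCN were at 0 in both. COL1A1 had 83 and 11 reads and was called lower, LUM had 21 and 1, LYZ 22 and 12, and CD14 11 and 8. Whether these marker differences have a part in the results below was not tested.

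Counts were scaled to a common library size (CPM), and DHA to NC ratios were taken after adding 0.5 reads to each count. Calls required 50 reads or more in 1 of the libraries, a difference of 2-fold or more, and a 95% counting interval excluding 1. These intervals are exact and cover counting error only. All 33 enzyme genes had enough reads. In the DHA library 4 of them were called lower, DUT, TYMS, TK1 and NME2, and 0 were called higher. Over all 12064 genes with enough reads, 10.3% were called lower and 6.72% higher, so the share of enzyme genes called lower, 12.1%, lay near that of all genes. The direction was more uniform than the calls. The ratio was below 1 for 31 of the 33, against 47.8% of all genes. The median log2 ratio was -0.52, against 0.04 over all genes and 0.10 over the 6551 genes with at least 500 reads. The counting interval lay wholly below 1 for 28 of the 33, above 1 for PRPS1 alone, and spanned 1 for 4. Over all 12064 genes it lay below 1 for 4288, above 1 for 4801 and spanned 1 for 2975, so an interval excluding 1 was common. At a threshold of 1.5-fold, 12 enzyme genes (36.4%) were lower and 0 were higher, against 19.2% and 18.9% of all genes. Together the 33 genes took 0.411% of the reads in the NC library and 0.290% in the DHA library. In a bulk sample, fewer cells in a given state, such as S phase, and less RNA per cell cannot be told apart.

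**Figure D1:**
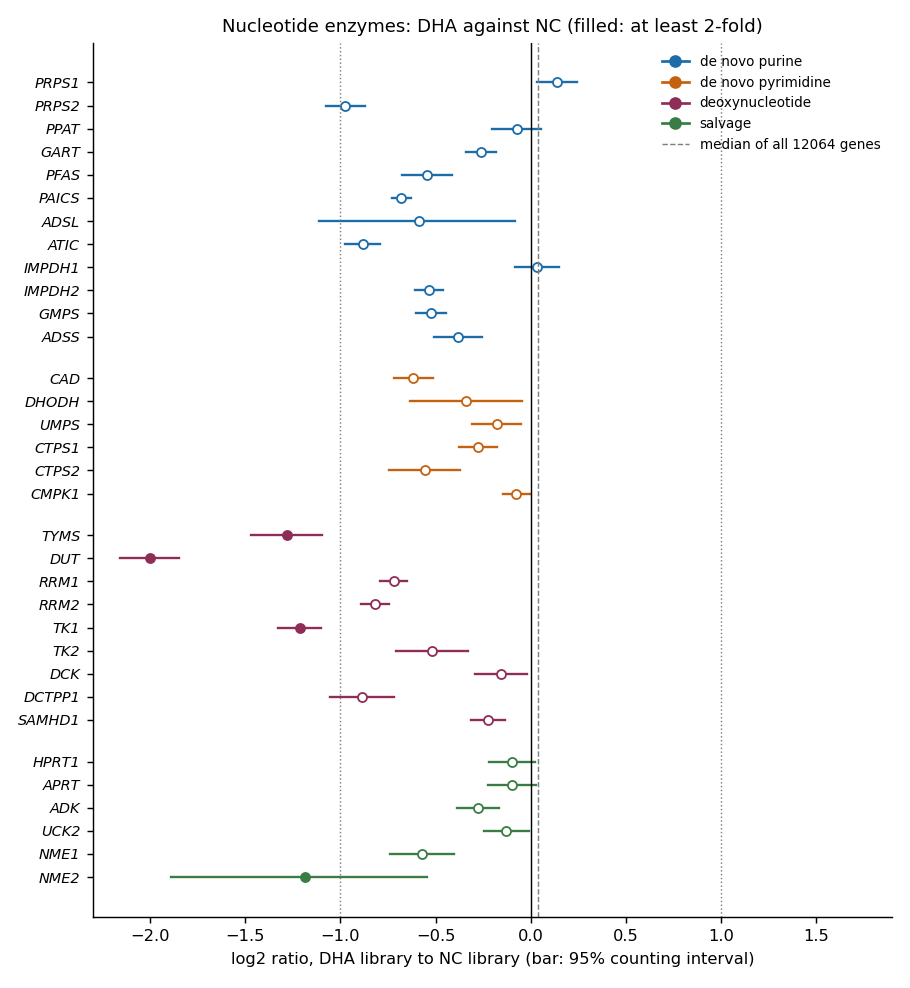
Log2 ratio of the DHA to the NC library for each of the 33 enzyme genes, by role. Points are ratios, bars are 95% counting intervals, filled points differed at least 2-fold, dotted lines mark 2-fold in either direction and the dashed line is the median of all 12064 genes. Points for 31 genes lie left of 0, and DUT is the farthest at -2.00.

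How reads were assigned limits some of these counts. Of 710 genes whose exons lie wholly inside exons of genes on the opposite strand, and share none on the same strand, 0 had any read. Of 1139 genes wholly inside exons of genes on the same strand, 8 had reads, 14 in all. By comparison 15443 of 41758 genes that share no exon had reads. In these counts, then, stretches shared with another gene on either strand contributed almost no reads. An enzyme gene that overlaps another is thus read from its remaining exons. Over 50% of the coding bases were shared in 5 of the 33, NME2 (100%), ADSL (89.9%), RRM2 (87.2%), NME1 (74.8%) and TYMS (52.1%). Without these 5, 2 of 28 genes were called lower, DUT and TK1, and the median log2 ratio was -0.36, with 26 of 28 below 0.

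Genes of deoxynucleotide supply held 3 of the 4 calls, 33.3% of the 9 in this role against 10.3% of all genes. All 9 had counting intervals below 1, as had 4288 of all 12064 genes. Their median log2 ratio of -0.82 was the lowest of the 4 roles, with single genes between -2.00 and -0.16. The 8 deoxynucleotide genes of a second list, described below, were less uniform, with a median log2 ratio of -0.26 and 1 called lower (12.5%). Their intervals lay below 1 for 4, above 1 for 2 and spanned 1 for 2. DUT encodes dUTPase, which hydrolyses dUTP to dUMP, keeping uracil out of DNA and supplying the substrate of thymidylate synthase. It lies on chromosome 15 at 48331011 to 48343373, plus strand, of GRCh38 (ENSG00000128951). DUT had 1818 reads in the NC and 430 in the DHA library, or 118 and 29.5 CPM. It was 4.0-fold lower in the DHA library (95% counting interval 3.60 to 4.46), the largest difference among the 33. A gene on the other strand shares 37.0% of the coding bases of DUT.

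TYMS, which encodes thymidylate synthase, the target of fluoropyrimidine drugs, had 863 reads in the NC and 336 in the DHA library. It was 2.43-fold lower in the DHA library (2.14 to 2.77). It lies on chromosome 18 at 657604 to 673578, plus strand (ENSG00000176890), and shares exons with ENOSF1 and TYMSOS on the opposite strand. TK1 encodes the cytosolic thymidine kinase, whose level is known to follow the cell cycle (chromosome 17, 78174075 to 78187233, minus strand, ENSG00000167900). TK1 had 2187 and 892 reads, 2.32-fold lower in the DHA library (2.15 to 2.51), and shares no exon with another gene. TK2, the mitochondrial thymidine kinase gene, had 579 and 383 reads and a log2 ratio of -0.52 (-0.71 to -0.33). The enzyme that supplies thymidylate de novo and the one that salvages thymidine in the cytosol were thus both lower in their transcripts.

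RRM1 and RRM2 encode the large and small subunits of ribonucleotide reductase. RRM1 had 4168 reads in the NC and 2395 in the DHA library, a log2 ratio of -0.72 (-0.79 to -0.65). RRM2 had 4395 and 2363 reads, a log2 ratio of -0.82 (-0.89 to -0.74). Both subunits lay on the lower side by less than 2-fold, and the difference between their log2 ratios, RRM2 minus RRM1, was -0.10 with an interval of -0.20 to 0.01. DCTPP1, a pyrophosphatase that clears dCTP and its modified forms, had 878 and 450 reads and a log2 ratio of -0.88 (-1.05 to -0.72), with 41.6% of its coding bases shared. The other 2 genes differed least. DCK, the deoxycytidine kinase gene, had 985 and 837 reads (log2 ratio -0.16, -0.29 to -0.02). SAMHD1, which encodes a hydrolase that degrades deoxynucleoside triphosphates, had 2269 and 1840 reads (-0.22, -0.31 to -0.13).

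**Figure D2:**
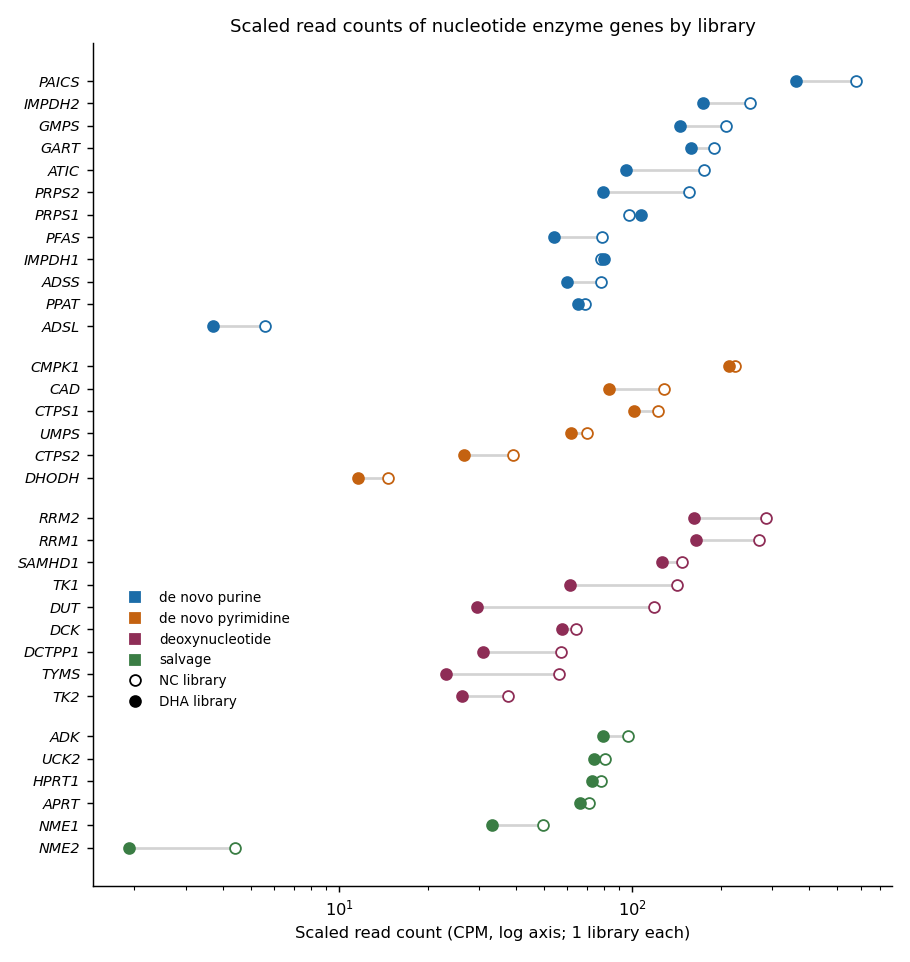
Scaled read counts (CPM, log axis) of the 33 enzyme genes in the NC library (open) and the DHA library (filled), by role and ordered by the NC level. DUT, TYMS, TK1 and NME2 show the widest gaps, and PRPS1 and IMPDH1 are the only genes with the filled point to the right.

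In de novo purine synthesis 0 of 12 genes were called, 10 had ratios below 1, and the median log2 ratio was -0.53. PRPS1 and PRPS2 encode the X-linked isoenzymes of PRPP synthetase, which makes PRPP, and the 2 differed in opposite directions. PRPS1 (chromosome X, 107628424 to 107651026, ENSG00000147224) had 1499 reads in the NC and 1561 in the DHA library, a log2 ratio of 0.14 (0.03 to 0.24). With DESeq2 size factors the PRPS1 value was 0.10 and with upper-quartile scaling 0.07, still above 0. Both are lower by more than the distance from 0 to the interval's lower end. Under either scaling the interval for PRPS1 would therefore span 0. PRPS2 (chromosome X, 12791355 to 12824222, ENSG00000101911) had 2400 and 1156 reads. It was 1.97-fold lower in the DHA library (1.83 to 2.11), just short of 2-fold, and passed it with DESeq2 size factors (log2 ratio -1.01) and with upper-quartile scaling (-1.04).

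The 6 enzymes that take PRPP to IMP all had ratios below 1, with a median log2 ratio of -0.57. PPAT encodes the amidotransferase that commits PRPP to purines and is inhibited by the end products. PPAT had 1057 and 951 reads, a log2 ratio of -0.07 with an interval that spans 0 (-0.20 to 0.05). GART, a trifunctional enzyme of the pathway, had 2918 and 2308 reads (-0.26, -0.34 to -0.18). PFAS, the amidotransferase that follows, had 1215 and 789 reads (-0.54, -0.68 to -0.41). PAICS, a bifunctional enzyme and the most abundant of the 33 per scaled read count, had 8914 and 5269 reads (-0.68, -0.73 to -0.63). ADSL, the adenylosuccinate lyase gene, had only 86 and 54 reads (-0.59, -1.11 to -0.09). Those reads come mostly from outside the coding exons of ADSL, of which another gene on the same strand shares 89.9%. ATIC, the bifunctional enzyme that closes the ring, had 2695 and 1383 reads (-0.88, -0.98 to -0.79). From PPAT and GART to ATIC the log2 ratios thus ranged from -0.07 to -0.88, with the largest at the last enzyme.

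PPAT and PAICS are neighbours that face away from each other on chromosome 4. Their annotated starts, 56435615 and 56435741, are separated by 125 bases, shown because both genes are read outward from it. RefSeq's promoter table (GRCh38.p14) gives it for chr4:56435616-56435740, plus strand, in the direction of PAICS.
PPAT/PAICS: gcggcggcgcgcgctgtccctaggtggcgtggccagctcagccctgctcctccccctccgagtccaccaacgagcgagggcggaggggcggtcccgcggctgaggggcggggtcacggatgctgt
The pair nonetheless differed in ratio, and PAICS minus PPAT was -0.61 on the log2 scale (95% counting interval -0.74 to -0.47).

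From IMP, IMPDH1 and IMPDH2 encode isoenzymes of IMP dehydrogenase, the rate-limiting step to GMP. IMPDH1 had 1204 and 1166 reads, a log2 ratio of 0.03 (-0.08 to 0.15), which turned to -0.01 with DESeq2 size factors and -0.03 with upper-quartile scaling. IMPDH2, the form known to be raised in dividing cells, had 3860 and 2526 reads (-0.53, -0.61 to -0.46). GMPS, which completes GMP, had 3221 and 2120 reads (-0.52, -0.60 to -0.45). ADSS, which starts the branch to AMP, had 1198 and 870 reads (-0.38, -0.51 to -0.26). Both branches therefore held genes on the lower side, and neither held one past 2-fold.

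De novo pyrimidine genes differed less, with a median log2 ratio of -0.31 and 0 of 6 called, though all 6 intervals lay below 1. CAD, which encodes the trifunctional enzyme of the opening steps, had 1969 reads in the NC and 1216 in the DHA library, 1.53-fold lower (1.43 to 1.65). DHODH, the mitochondrial enzyme that passes electrons to ubiquinone, had 226 and 169 reads (log2 ratio -0.34, -0.64 to -0.05). UMPS, which makes UMP, had 1076 and 900 reads (-0.18, -0.31 to -0.05). The CTP synthase genes CTPS1 and CTPS2 had 1881 and 1471 reads (-0.28, -0.38 to -0.18) and 603 and 388 reads (-0.56, -0.75 to -0.37). CMPK1, a UMP and CMP kinase gene, had 3454 and 3102 reads (-0.08, -0.15 to -0.01).

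By median, salvage genes stayed closest to 1, at a log2 ratio of -0.20, though 1 of the 6, NME2, was called lower (-1.19). HPRT1, which recovers hypoxanthine and guanine, had 1203 reads in the NC and 1064 in the DHA library (-0.10, -0.22 to 0.02). APRT, which recovers adenine, had 1093 and 966 reads (-0.10, -0.23 to 0.03). The intervals of both purine base salvage genes span 0. ADK, the adenosine kinase gene, had 1484 and 1160 reads (-0.28, -0.39 to -0.16). UCK2, a uridine and cytidine kinase gene, had 1245 and 1078 reads (-0.13, -0.25 to -0.01).

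NME1 and NME2 encode nucleoside diphosphate kinases, which interconvert nucleoside diphosphates and triphosphates, and adjoin each other on chromosome 17. NME1 had 761 and 485 reads (-0.57, -0.74 to -0.40), and NME2 had 68 and 28, 2.28-fold lower (1.46 to 3.71). All coding bases of NME2 also belong to the readthrough gene NME1-NME2, which had 0 reads in both libraries. The NME2 call therefore rests on reads outside its coding exons. NME2 also had too few reads in either library for a minimum of 500.

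**Figure D3:**
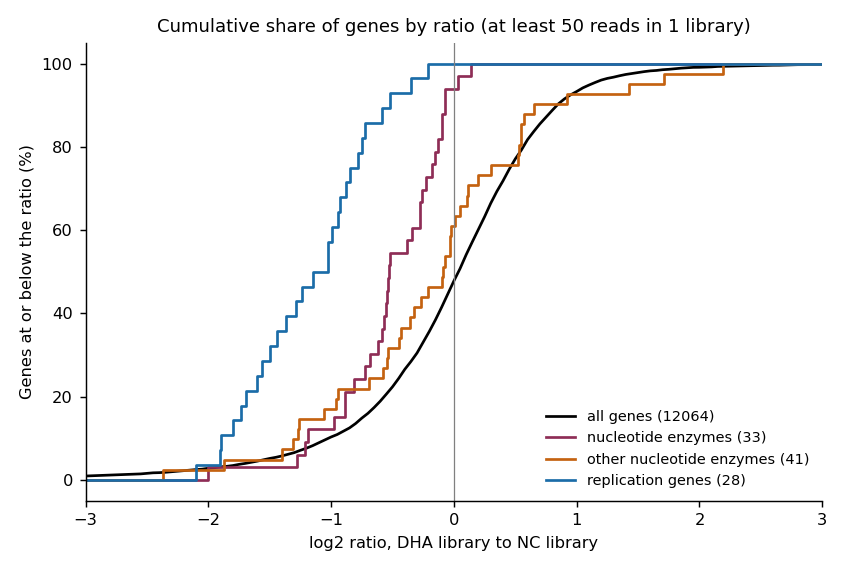
Cumulative share of genes (vertical axis, percent) at or below each log2 ratio of the DHA to the NC library (horizontal axis), for all 12064 genes, the 33 nucleotide enzymes, 41 other nucleotide genes and 28 replication genes. The enzymes' curve crosses 50% near -0.52, between those of the replication genes (-1.09) and of all genes (0.04).

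Replication genes, set beside the enzymes because DNA replication consumes deoxynucleotides, lay lower still. Of 28 such genes 16 were called lower (57.1%, against 10.3% of all genes) and 0 higher, with a median log2 ratio of -1.09 and all 28 below 0. The ligase gene LIG1 had 961 and 212 reads, 4.28-fold lower (3.70 to 5.0), and PCNA, the polymerase clamp gene, had 2664 and 832, 3.03-fold lower (2.80 to 3.28). The 24 enzyme genes outside the deoxynucleotide role had a median of -0.36, with 1 called lower.

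Shares within isoenzyme pairs were compared per exon length, as TPM (read counts divided by exon length and brought to a common sum) within each library. PRPS2 made up 60.4% of the PRPS1 and PRPS2 total in the NC library and 41.3% in the DHA library, so the more abundant isoenzyme was PRPS2 in the one and PRPS1 in the other. The difference in log2 ratio, PRPS2 minus PRPS1, was -1.11 (95% counting interval -1.26 to -0.97). IMPDH2 made up 80.9% and 74.1% of its pair, a difference of -0.57 (-0.70 to -0.43) from IMPDH1, and remained the more abundant form. CTPS2 made up 40.1% and 35.5% of the CTP synthase pair, and its log2 ratio minus that of CTPS1 was -0.28 (-0.49 to -0.07). TK2 made up 6.43% and 10.03%, with TK2 minus TK1 at 0.70 (0.48 to 0.92). NME2 minus NME1 was -0.62, with an interval that reached 0 (-1.34 to 0.05).

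RRM2B encodes the alternative small subunit of ribonucleotide reductase, known as a p53 target used outside S phase. This pair was chosen after its values were seen. RRM2B had 1150 reads in the NC and 1561 in the DHA library, a log2 ratio of 0.52 (0.41 to 0.63), against -0.82 for RRM2. Per length RRM2 had 3.98 times the level of RRM2B in the NC library and 1.58 times in the DHA library. The difference in log2 ratio, RRM2 minus RRM2B, was -1.34 (-1.47 to -1.20). RRM2 is read only from exons it does not share, so its level per length is a low estimate in both libraries.

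**Figure D4:**
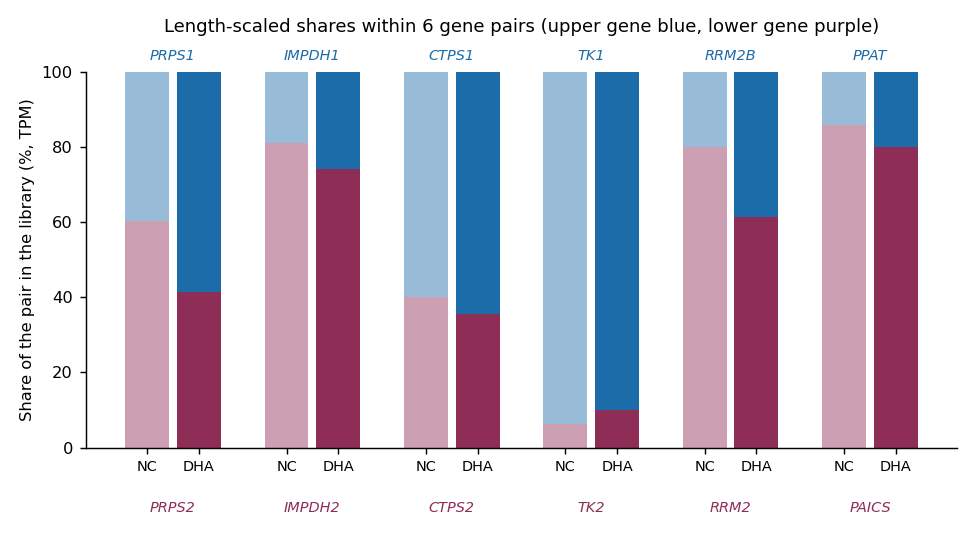
Share of each gene in 6 pairs (percent of the pair's summed TPM) in the NC library (pale) and the DHA library (dark). The PRPS2 share moves from 60.4% to 41.3% and the RRM2 share against RRM2B from 79.9% to 61.2%, and the other 4 pairs shift by less.

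Beyond the 33, a list of 46 other nucleotide genes was examined, of which 41 had enough reads. Of these 3 were called higher and 7 lower, with a median log2 ratio of -0.09 and 25 below 0. As shares these were 7.32% higher and 17.1% lower, against 6.72% and 10.3% of all genes, and 61.0% below 0 against 47.8%. The share called higher thus lay near that of all genes. The 3 higher genes all belong to the 16 measured genes of nucleotide breakdown, of which 3 were also lower. UPP1 encodes uridine phosphorylase, which splits uridine to uracil and ribose phosphate. UPP1 had 1323 (NC) and 5739 (DHA) reads, 4.58-fold higher (4.31 to 4.87). AMPD3, an AMP deaminase gene, had 243 and 756 reads, 3.28-fold higher (2.84 to 3.81). NT5E, which encodes the ectonucleotidase CD73, had 1591 and 4046 reads, 2.69-fold higher (2.53 to 2.85). The purine nucleoside phosphorylase gene PNP had 962 and 1728 reads, with a log2 ratio of 0.92 (0.81 to 1.04), short of 2-fold.

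On the lower side of the breakdown list, DPYD, which starts the degradation of uracil and of fluorouracil, had 759 and 298 reads, 2.41-fold lower (2.11 to 2.77). The guanine deaminase gene GDA had 4122 and 1873 reads, 2.08-fold lower (1.97 to 2.20), and the thymidine phosphorylase gene TYMP had 59 and 23, 2.40-fold lower (1.48 to 4.12). Breakdown genes thus differed in both directions, with a median log2 ratio of -0.01. Outside breakdown, the 4 remaining lower genes were NME3, NME4, CMPK2 and SLC29A2. The diphosphate kinase genes NME3 and NME4 were 5.15-fold (3.87 to 7.07) and 2.48-fold (2.09 to 2.96) lower. CMPK2, a mitochondrial nucleotide kinase gene also known as interferon-induced, had 98 and 25 reads, 3.66-fold lower (2.37 to 6.01). The nucleoside transporter gene SLC29A2 had 490 and 176 reads, 2.63-fold lower (2.21 to 3.15).

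**Figure D5:**
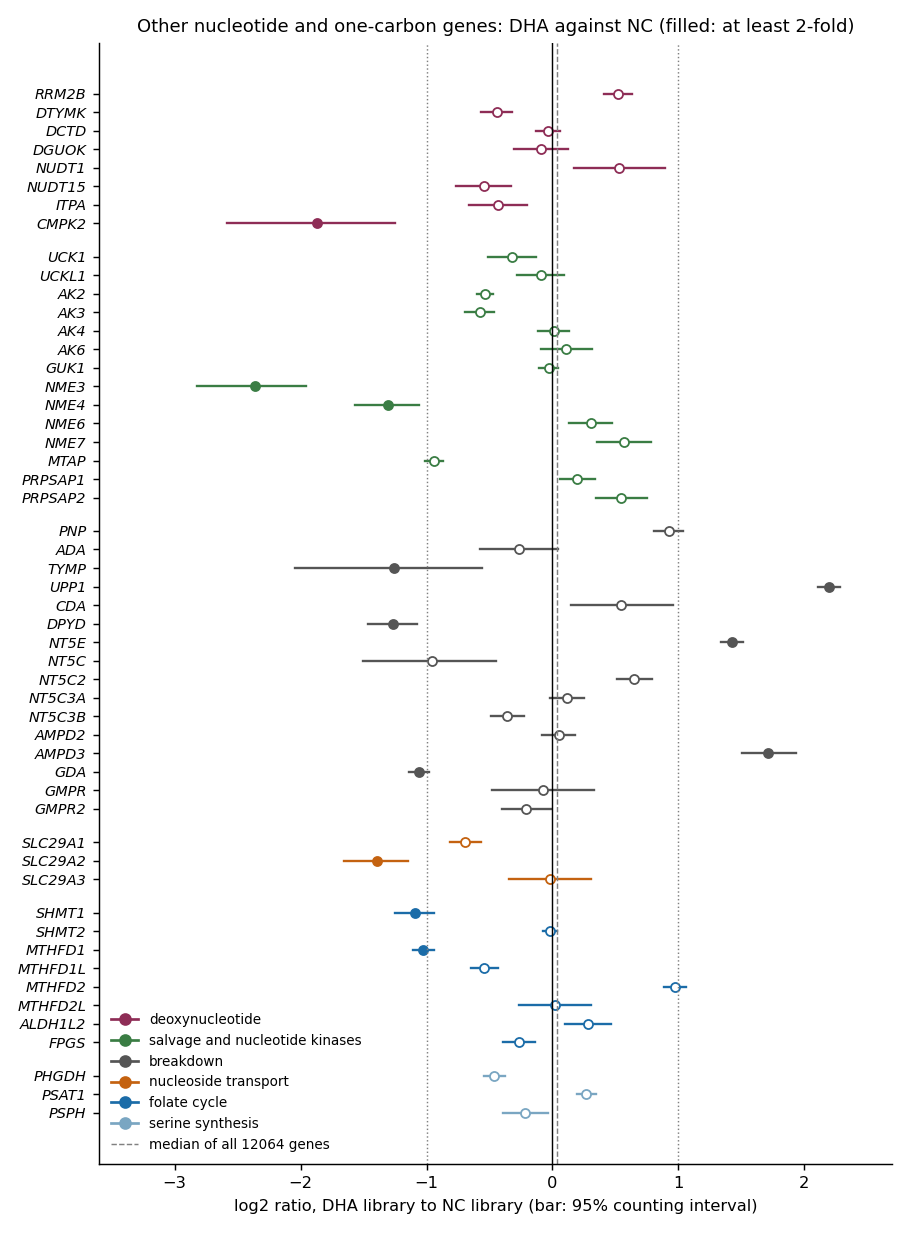
Log2 ratio of the DHA to the NC library for 41 other nucleotide genes and 11 of the 13 measured folate cycle and serine synthesis genes, with 95% counting intervals. Filled points differed at least 2-fold, dotted lines mark 2-fold and the dashed line is the median of all genes. UPP1 (2.20), AMPD3 (1.71) and NT5E (1.43) lie to the right and NME3 (-2.36) farthest to the left.

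Folate carries the carbon units that purine and thymidylate synthesis need, and serine is their main source. Of 13 measured genes of these routes 3 were called lower and 1 higher, with a median log2 ratio of -0.21. The shares were 23.1% and 7.69%, against 10.3% and 6.72% of all genes. Among the lower genes, SHMT1 and MTHFD1, which encode cytosolic enzymes, were 2.14-fold (1.92 to 2.38) and 2.04-fold (1.92 to 2.16) lower. Of their mitochondrial counterparts, SHMT2 and MTHFD2 had log2 ratios of -0.02 (-0.08 to 0.04) and 0.97 (0.89 to 1.06). MTHFD2L lay at 0.02 (-0.26 to 0.31), while MTHFD1L was on the lower side at -0.54 (-0.65 to -0.43). The mitochondrial genes thus did not share 1 direction.

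Promoter sequence was searched for TTTNNCGC, a simplified form of the site bound by E2F factors, and for CACGTG, the E-box core bound by MYC among others. Both strands of RefSeq's windows from 250 bases before to 50 after each start were read (GRCh38.p14). In DCK, which holds both motifs, the matches lie apart. Windows were found for 31 of the 33 genes, not for IMPDH2 and ADSL, and ADSS was matched under its newer symbol ADSS2. TTTNNCGC was present for 6 of the 31 (19.4%), against 8.23% of all 27305 genes with a window and 17 of 25 replication genes. Several starts give a gene more chances of a match, and by window such a gene weighs more. By window the shares were 15.2% of 46 windows of these enzymes and 6.89% of all 35116. Overlapping windows of ADSS hold the same match, counted once per window. Of the 4 genes called lower DUT and TYMS hold it, and TK1 and NME2 do not. The others with it are PRPS2, GART, ADSS and DCK, whose log2 ratios ran from -0.97 to -0.16. The 30 bases around the matches in DUT, TYMS, PRPS2 and DCK are shown 5′ to 3′ on the gene's strand, to set the lower genes beside 1 near 1, with the motif or its reverse complement in capitals. They lie at chr15:48332152-48332181, chr18:657603-657632, chrX:12791389-12791418 and chr4:70993659-70993688, all on the plus strand.
DUT: ctgGCGGGAAAtttcggtTTTGGCGCgctc
TYMS: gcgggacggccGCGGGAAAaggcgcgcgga
PRPS2: agccgccgcgcTTTCCCGCtcccgcagcag
DCK: gctgcctccgcGCGCCAAAgtcaaaccccg
DUT carries a match on each strand within these 30 bases, and the other 3 carry 1.

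CACGTG was present for 7 of the 31 (22.6%), against 8.77% of all genes and 3 of 25 replication genes. By window the shares were 15.2% of 46 and 7.26% of all 35116. For both motifs, all genes with a window were counted, also those without enough reads here. These were PPAT, PAICS, ATIC, DHODH, DCK, DCTPP1 and NME1, with log2 ratios from -0.07 to -0.88. PPAT and PAICS share 1 match, inside the windows of both. In the count table ATIC starts at 215311817, so its match shown here, upstream of the RefSeq start, lies inside the gene by that annotation. The shared match and the ATIC match are shown with the motif in capitals, at chr4:56435772-56435801 and chr2:215312001-215312030, both plus strand.
PAICS: ctggaaagctgtatttgctgCACGTGgaaa
ATIC: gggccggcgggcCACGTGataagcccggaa
A match describes these letters only and no binding was measured.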

How the data were processed

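RNA-seq was done on 1 NC and 1 DHA library. Per the labels' protocols, Trizol was used for extraction and 1 µg of total RNA went into an Illumina library kit. The deposited table holds unnormalized read counts per gene, per the file headers and values, and a gene length in bases. Aligner, counting tool and settings were not given in any source used here. The submitters' processing notes list the mouse build mm8, but all 58735 gene identifiers, coordinates and exon lengths equalled those of human GENCODE release 29 (GRCh38), which is used here. The 33 genes and the other gene lists were chosen with earlier results of these data known.

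Scaling used TMM factors (0.996 for NC and 1.00 for DHA) from edgeR 4.0.16, run under R 4.3.3, and DESeq2 1.42.0 gave alternative size factors. Ratios used 0.5 added reads, and intervals are exact Clopper-Pearson (scipy 1.17.1) of the DHA share of a gene's reads. Differences between 2 genes' ratios have the exact conditional odds ratio interval. All these intervals cover counting error only. PCR copies are not independent molecules, so where such copies were counted the intervals are too narrow even for that error. A count of 0 allows 3 reads, 0.195 CPM in the NC and 0.206 in the DHA library. TPM, computed with the deposited length, was compared only within a library, since the DHA to NC ratio of TPM is 1.12 times that of scaled counts for every gene. The calling code was also run on simulated counts with known differences and counting error only. That run does not cover variation between cultures or libraries, which 1 library per group leaves unmeasured. The naming rule took every enzyme gene and, of the other lists, the called genes or otherwise up to 4 with the largest ratios. Replication genes are given by counts and 2 examples, and some other genes of the lists are not reported here. Named outside that rule, after their values were seen, were RRM2B, PNP, SHMT2, MTHFD2, MTHFD2L, MTHFD1L, MTAP, PRPSAP2, MYC, E2F1, E2F7 and CCND1. The RRM1/RRM2, RRM2B/RRM2 and PPAT/PAICS pairs were added after seeing the data.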

Additional observations from a re-analysis of the deposited data

How the results depend on the processing

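No paired analysis was possible because each group has 1 library. Results were recomputed under other scalings, read minimums, pseudocounts, a fold threshold, an interval and gene subsets, and under 3 alternatives added after seeing the data (a trend on length and GC removed, genes with much shared coding sequence left out, and unshared exon length for pairs). No called gene changed sign under any alternative, among 2339 comparisons of all results. Called ratios lie 2-fold or more from 1, counts have no sign, and scaling cannot move a difference between 2 genes. That outcome was thus largely fixed in advance and is no test of robustness. Uncalled values near 0 did change sign, among the enzymes IMPDH1 (-0.01 with DESeq2 size factors and -0.03 with the upper quartile) and, with the trend removed, HPRT1 (0.01) and APRT (0.02), as did the median of all genes (-0.03 with the upper quartile). Enzyme genes below 1 numbered 29 to 32 of 33 where all were tested, and 0 were higher in any. Lower calls were 4, but 5 (with PRPS2, so 1 purine gene) with DESeq2 size factors and with the upper quartile, 3 (0 salvage) with 500 reads, and 2 (0 salvage, median log2 ratio -0.36) without the 5 genes with over 50% of coding bases shared. At 1.5-fold, 12 were lower (4 purine, 1 pyrimidine, 6 deoxynucleotide), with 25 replication genes, 5 regulators lower and 3 higher, and 5 other nucleotide and 2 folate or serine genes higher. With TK1, TK2 and DCK among salvage enzymes, 2 of that role were lower. With 500 reads, 2 other nucleotide genes and 1 regulator were lower. Of folate and serine genes 0 were called higher, against 1, with DESeq2, upper-quartile and trend-removed values. Over all genes, lower and higher calls were 1245 and 811, but 2126 and 1297 with 10 reads, 379 and 431 with 500, 2386 and 1432 with no filter, and 2320 and 2284 at 1.5-fold. The cause of these shifts was not tested beyond the alternatives' own construction. Precision follows reads: ADSL and NME2 have under 100 in each library.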

Other observations

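Regulators known to act on these genes were listed beside them: transcription factors, cyclins, and RB1 with its relatives RBL1 and RBL2. Enough reads were found for 17 of 18. Of these 3 were lower (17.6%, against 10.3% of all genes) and 0 higher, with a median log2 ratio of -0.20. MYC, which activates many nucleotide synthesis genes, had 1886 reads in the NC and 1839 in the DHA library, a log2 ratio of 0.04 (95% counting interval from -0.05 to 0.14) that turned to -0.02 when scaled by the upper quartile. E2F1, an activator of replication genes, had 1913 and 962 reads (-0.91, -1.03 to -0.80). E2F2 had 321 and 54 reads, 5.59-fold lower in the DHA library (4.21 to 7.66), and the atypical factor gene E2F8 had 688 and 187, 3.48-fold lower (2.96 to 4.12). The cyclin gene CCNE2 had 219 and 102 reads, 2.03-fold lower (1.60 to 2.60), and CCND1 had 6739 and 10573 reads, a log2 ratio of 0.73 (0.68 to 0.77). E2F7, also an atypical factor gene, lay on the other side from E2F8, with 914 and 1388 reads and a log2 ratio of 0.68 (0.56 to 0.80).

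Other members of the salvage and nucleotide kinase list had ratios on both sides. MTAP, which recovers adenine from methylthioadenosine and is often deleted in pancreatic cancer, had 4582 and 2258 reads (log2 ratio -0.94, -1.02 to -0.87), and passed 2-fold after removal of a trend on GC and length (-1.05) or scaled by the upper quartile (-1.01). PRPSAP2, an accessory protein of PRPP synthetase, had 343 and 474 reads (0.54, 0.34 to 0.75).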
